A study of Mus musculus with 12 samples.

Results

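The genes described here take up glucose, trap it in the cell and decide whether the pyruvate made from it is oxidised or turned into lactate. The set was fixed by name: Slc2a1, Slc2a4, Hk1, Hk2, Pdk1, Pdk2, Pdk3, Pdk4, Ldha and Ldhb, with every probe that the platform annotation assigns to each symbol. Of these 10 genes, 8 had a named probe, with 1 probe for each and 2 for Hk1, which makes 9 of the 26423 probes on the array and 8 of 17742 named genes. Ldha and Ldhb, the subunit genes of lactate dehydrogenase, were matched to none of the probes by symbol or synonym, so the lactate step itself was not analysed here.

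RNA came from whole mouse hearts at postnatal day 8 on a hybrid of the C57bl/6 and 129 backgrounds. One group was labelled Salvador mutant (Salv CKO) and the other wild-type (Control), with 2 biological samples in each and 3 technical arrays per sample, or 12 one-colour Cy5 arrays in all. The sources used here do not give the Cre driver, the deleted stretch of Salvador (Sav1) or the number of hearts in a sample. The source label names embryonic heart where the stage label and protocol give postnatal day 8. Beyond the words biological replicate, nothing tells how the samples of a group were separated, so a p-value here reflects the variation among these 4 samples, which may be technical.

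Glucose enters heart cells through Slc2a1 (GLUT1), which carries basal uptake and predominates before birth, and Slc2a4 (GLUT4), the insulin-responsive carrier of the adult heart. Hexokinases phosphorylate the sugar, Hk1 being the widespread form and Hk2 the main form of insulin-sensitive muscle. The pyruvate dehydrogenase kinases Pdk1 to Pdk4 inactivate the enzyme complex that feeds pyruvate into the citric acid cycle, and the heart shifts from glycolysis towards fatty acid oxidation after birth. The Hippo pathway, of which Sav1 is the scaffold, restrains transcription by Yap1 and Wwtr1 with the TEAD factors, and the study asked which heart genes depend on it.

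The start regions of these genes are shown because several hold the letters that hypoxia-inducible factors, known regulators of glycolytic genes, recognise. Of the 10 genes, 9 matched by symbol in the set of RefSeq start regions used here (GRCm38.p6), with 13 annotated starts. Slc2a4 had no entry in that set. Each window is the 250 bases before a start, written 5′ to 3′ on the strand of the gene, and both strands were searched. The capitals mark ACGTG, a form of the core of the hypoxia response element, or its reverse complement. The core can also read GCGTG, which was not marked or counted here. In Pdk2 the 2 matches overlap as a palindrome.
Slc2a1 (chr4:119108495-119108744, plus strand): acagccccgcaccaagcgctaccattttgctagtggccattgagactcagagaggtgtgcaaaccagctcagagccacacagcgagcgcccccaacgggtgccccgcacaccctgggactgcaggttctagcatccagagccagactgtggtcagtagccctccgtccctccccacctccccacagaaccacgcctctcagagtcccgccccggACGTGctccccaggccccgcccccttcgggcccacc
Hk2 (chr6:82774455-82774704, minus strand): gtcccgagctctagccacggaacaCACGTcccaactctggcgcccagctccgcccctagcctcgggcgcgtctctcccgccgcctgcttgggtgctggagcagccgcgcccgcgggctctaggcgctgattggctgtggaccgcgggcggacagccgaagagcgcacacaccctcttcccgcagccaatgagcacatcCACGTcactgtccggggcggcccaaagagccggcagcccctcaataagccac
Pdk2 (chr11:95041372-95041621, minus strand): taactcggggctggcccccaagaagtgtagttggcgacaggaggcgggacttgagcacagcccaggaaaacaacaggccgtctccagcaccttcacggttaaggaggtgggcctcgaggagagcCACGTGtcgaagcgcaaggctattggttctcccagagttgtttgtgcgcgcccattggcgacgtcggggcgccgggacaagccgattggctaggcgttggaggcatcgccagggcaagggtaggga
Pdk4 (chr6:5496279-5496528, minus strand): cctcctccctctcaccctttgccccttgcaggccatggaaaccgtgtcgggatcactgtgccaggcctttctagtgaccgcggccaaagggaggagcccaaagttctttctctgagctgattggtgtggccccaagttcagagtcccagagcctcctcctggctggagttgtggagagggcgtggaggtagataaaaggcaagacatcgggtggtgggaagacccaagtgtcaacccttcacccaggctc
ACGTG occurred in 5 of the 13 member windows, those of Slc2a1, Hk2, Pdk2, Pdk3 and Ldha, and in 16.6% of all 32851 windows of this length. Pdk4, the member that varied most between samples, did not hold ACGTG in its window. It held GCGTG, as did windows of Pdk1 and Pdk3, and the share of all windows with GCGTG was not counted.
A match describes the sequence alone and is not evidence of binding.

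The values below are log2 levels, that is log2(intensity + 1) after quantile normalization of the 12 arrays, averaged over the 3 technical arrays of a sample. A fold change is on that scale, and levels of different probes are not set against each other. Sav1, the targeted gene, had levels of 8.06 and 8.52 for the libraries labelled Salv CKO 1 and 2 and of 8.75 and 8.08 in Control 1 and 2, so the groups overlapped and every direction below is that of the labels only. In limma, 0 of 26423 probes (0.0%) passed an adjusted p of 0.05, with a smallest adjusted p of 0.999. Before adjustment, 1047 probes (3.96%) had a p under 0.05, 1.95% of all probes with a positive and 2.01% with a negative difference.

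None of the 9 member probes passed the threshold (limma, smallest adjusted p = 0.999), and 0 of 9 had an unadjusted p under 0.05 (3.96% of all probes), the smallest being 0.238 for Pdk2. Between the groups, 4 probes had a positive difference (Salv CKO minus Control; 48.6% of all probes) and 5 a negative one, with a median of -0.044 against -0.010 over all probes. The groups did not overlap for 2 of the 9, Pdk2 higher and 1 probe of Hk1 lower, against 30.6% of all probes (14.8% higher and 15.8% lower). With each array centred on its median in place of quantile normalization, the groups overlapped for both. Without normalization between arrays they overlapped for both as well. The members were well measured, with mean levels from 7.45 to 12.83, at or above the 62.8th percentile of probes. The spread between the 2 samples of a group exceeded that between technical arrays for 8 of 9 probes. Pdk2 was the exception, with 0.070 between samples and 0.095 between arrays.

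**Figure D1:**
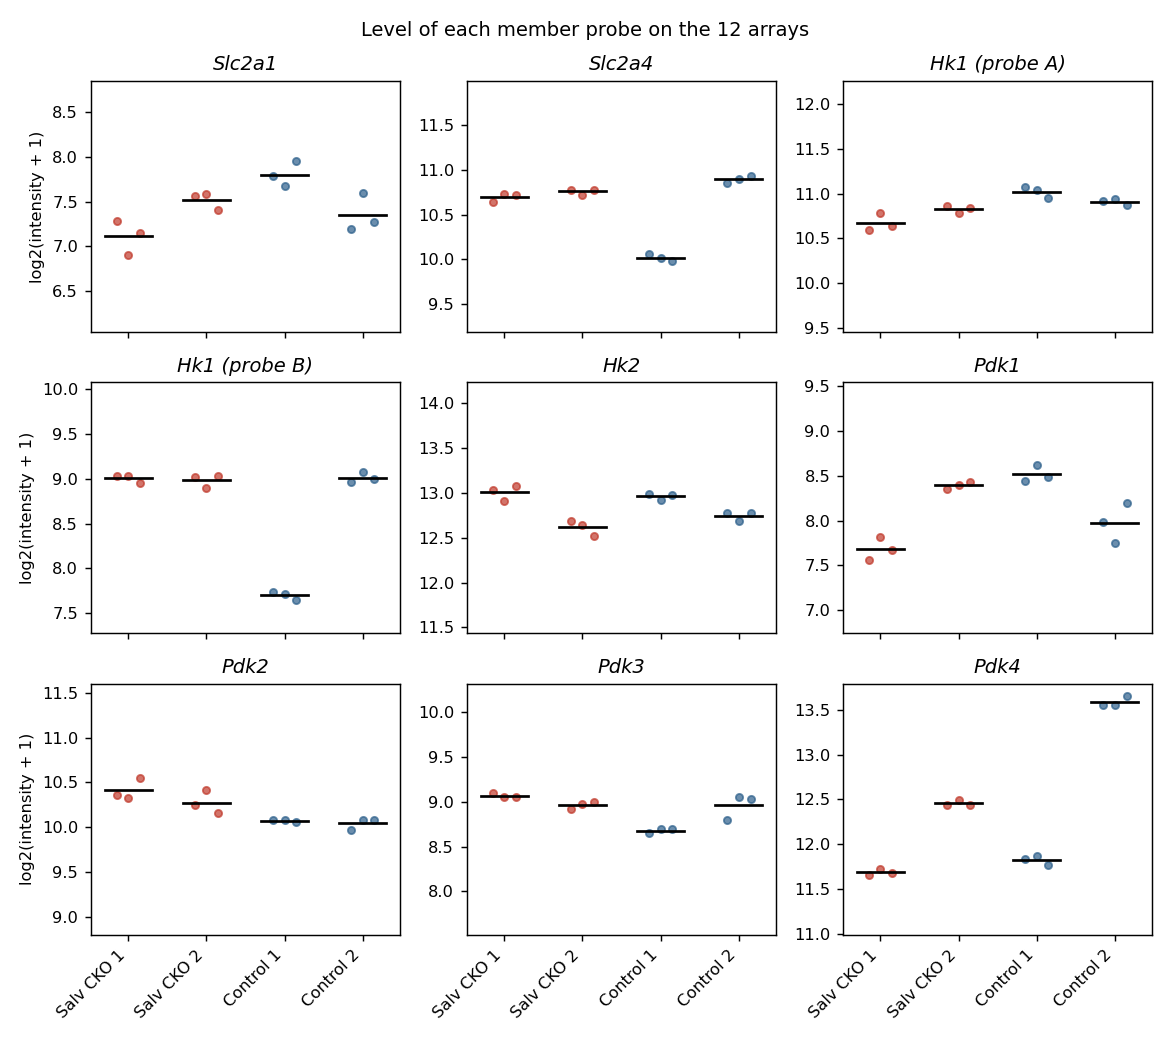
Each panel plots 1 member probe, with log2(intensity + 1) on the vertical axis and the 4 biological samples along the horizontal axis; points are technical arrays (red, Salv CKO; blue, Control), bars are sample means, and all panels span the same log2 range. Pdk4 in Control 2 (13.59) and the dimmer Hk1 probe, probe B, in Control 1 (7.70) stand farthest from the other samples.

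Slc2a1, the basal glucose carrier, had log2 levels of 7.11 and 7.52 in Salv CKO 1 and 2, against 7.80 and 7.35 in Control 1 and 2. From low to high, Salv CKO and Control samples alternated. The difference was -0.26 ± 0.28 (SE, n = 2 per group, limma adjusted p = 0.999), with a 95% interval from -1.01 to 0.49. Its deposited intensities averaged 132, 210, 219 and 152 in Salv CKO 1, Salv CKO 2, Control 1 and Control 2, and its technical SD of 0.17 was the largest of the set. Without Control 1 the difference was -0.037.

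Slc2a4, the insulin-responsive carrier, stood at 10.70 and 10.76 in Salv CKO 1 and 2 and at 10.02 and 10.89 in Control 1 and 2. One control was the lowest and the other the highest of the 4 samples, whereas the Salv CKO samples differed by 0.062. The difference was 0.27 ± 0.35 (limma adjusted p = 0.999; 95% interval from -0.66 to 1.20). It was -0.16 without Control 1 and 0.71 without Control 2 (limma, unadjusted p = 0.0483, adjusted p = 0.463), so its sign rested on Control 1. Control 1 was the lowest sample under each of the 4 other level settings tried (2 scalings, the median of technical arrays and a larger pseudocount). Centring on the array medians placed Control 1 at 10.23 and Salv CKO 1 at 10.40, a smaller gap.

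The balance of the carriers, Slc2a4 minus Slc2a1 within a sample, was expressed around its own mean over the 4 samples. It was 0.44 and 0.096 in Salv CKO 1 and 2, -0.93 in Control 1 and 0.39 in Control 2. Control 1 alone lay below the mean. The group difference was 0.53 (exact permutation test over samples, two-sided p = 0.667, adjusted p = 1 over 3 pairs). With 2 samples a group this test cannot give a p below 0.333. Without Control 1 the difference was -0.13.

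Hk1, the widespread hexokinase, was read by 2 probes that disagreed in direction. The brighter one, probe A, had levels of 10.67 and 10.83 in Salv CKO 1 and 2 and of 11.02 and 10.91 in Control 1 and 2. Both controls lay above both Salv CKO samples, with a difference of -0.22 ± 0.21 (limma adjusted p = 0.999; 95% interval from -0.78 to 0.35). With arrays centred on their medians the difference was -0.41, but Control 2 (10.86) then lay below Salv CKO 2 (10.91).

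Probe B of Hk1 stood at 9.01 and 8.98 in Salv CKO 1 and 2, at 7.70 in Control 1 and at 9.01 in Control 2. Its deposited intensities averaged 444, 598 and 472 in Salv CKO 1, Salv CKO 2 and Control 2, against 202 in Control 1. The other 3 samples lay within 0.029 of each other, while Control 1 was lower on each of its 3 arrays (technical SD 0.057). With the median of technical arrays in place of their mean the groups did not overlap, by a narrow margin. The difference was 0.64 ± 0.48 (limma adjusted p = 0.999; 95% interval from -0.62 to 1.90). It was -0.016 without Control 1, and 1.30 without Control 2. In Control 1 the same gene was thus highest of the 4 samples by probe A and lowest by probe B. The transcript each probe reads is unknown here, and RefSeq lists 2 starts for Hk1.

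Hk2, the hexokinase of insulin-sensitive muscle, had levels of 13.01 and 12.62 in Salv CKO 1 and 2, and of 12.96 and 12.75 in Control 1 and 2. The Salv CKO samples enclosed both controls. The difference was -0.044 ± 0.25 (limma adjusted p = 1.00; 95% interval from -0.71 to 0.62), a fold of 0.97. It was 0.064 without Control 1 and 0.15 without Salv CKO 2, and -0.26 with median centring, where the groups did not overlap.

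The balance of Hk2 over Hk1 (probe A), around its mean, was 0.36 and -0.19 in Salv CKO 1 and 2 and -0.034 and -0.14 in Control 1 and 2. Salv CKO 1 alone lay above the mean. The difference was 0.17 (exact permutation p = 1, adjusted p = 1 over 3 pairs), and -0.26 when both Hk1 probes were averaged.

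Pdk1, the kinase known as a target of hypoxia signalling, had levels of 7.68 and 8.39 in Salv CKO 1 and 2 and of 8.52 and 7.98 in Control 1 and 2. Salv CKO and Control samples alternated in order here too. The difference was -0.21 ± 0.36 (limma adjusted p = 0.999; 95% interval from -1.15 to 0.74). It became 0.060 without Control 1 and 0.15 without Salv CKO 1. The deposited intensities averaged 190, 393, 372 and 236 in Salv CKO 1, Salv CKO 2, Control 1 and Control 2.

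Slc2a1, Pdk1 and Sav1 shared 1 order of the samples, from Salv CKO 1 (lowest) through Control 2 and Salv CKO 2 to Control 1 (highest). This was the most frequent of the 24 possible orders on the array, held by 1992 of 17742 named genes, or 11.2%. It crosses the labels.

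Pdk2, an abundant heart form of the kinase, had levels of 10.41 and 10.27 in Salv CKO 1 and 2, against 10.07 and 10.04 in Control 1 and 2. Both Salv CKO samples lay above both controls, by 0.28 ± 0.21 (SE) on average, a fold of 1.22 (limma adjusted p = 0.999; 95% interval from -0.27 to 0.83). The difference ran from 0.21 to 0.35 with each sample left out in turn. With arrays centred on their medians it was 0.095 and the groups overlapped, with Salv CKO 1 at 10.12 below Control 1 at 10.28. They overlapped without normalization between arrays as well, where the difference was 0.29.

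Pdk3, the kinase form least held back by its product inhibitors, stood at 9.07 and 8.96 in Salv CKO 1 and 2 and at 8.68 and 8.96 in Control 1 and 2. Control 1 was low, and Control 2 lay level with Salv CKO 2. The difference was 0.19 ± 0.23 (limma adjusted p = 0.999; 95% interval from -0.41 to 0.79), and 0.051 without Control 1. Without normalization between arrays the groups did not overlap.

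Pdk4, the kinase induced by fasting and fatty acids, spread most widely. Its deposited intensities averaged 2699 and 6528 in Salv CKO 1 and 2, and 3945 and 11486 in Control 1 and 2. The log2 levels were 11.69, 12.46, 11.83 and 13.59 in the same order, a fold of 3.74 between the highest and the lowest sample. Both samples numbered 2 lay above both samples numbered 1. The order, from Salv CKO 1 through Control 1 and Salv CKO 2 to Control 2, held under each of the 4 other level settings. Technical arrays differed little (SD 0.046). The gap of 1.77 between the controls was wider than that of 97.5% of all probes, and the gap of 0.77 between the Salv CKO samples wider than that of 87.7%.

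Against this spread the group difference of Pdk4 was -0.64 ± 0.67 (SE, limma adjusted p = 0.999), with a 95% interval from -2.39 to 1.12. It was -1.52 without Control 1 and 0.25 without Control 2. It was -0.25 without Salv CKO 1 and -1.02 without Salv CKO 2, so its size moved with each sample and its sign with Control 2. The balance of Pdk4 over Pdk2, around its mean, was -0.91 and -0.0072 in Salv CKO 1 and 2, -0.44 in Control 1 and 1.36 in Control 2. Control 2 alone was far above the mean. The difference was -0.92 (exact permutation p = 0.667, adjusted p = 1 over 3 pairs) and ran from -1.82 without Control 1 to -0.021 without Control 2.

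**Figure D2:**
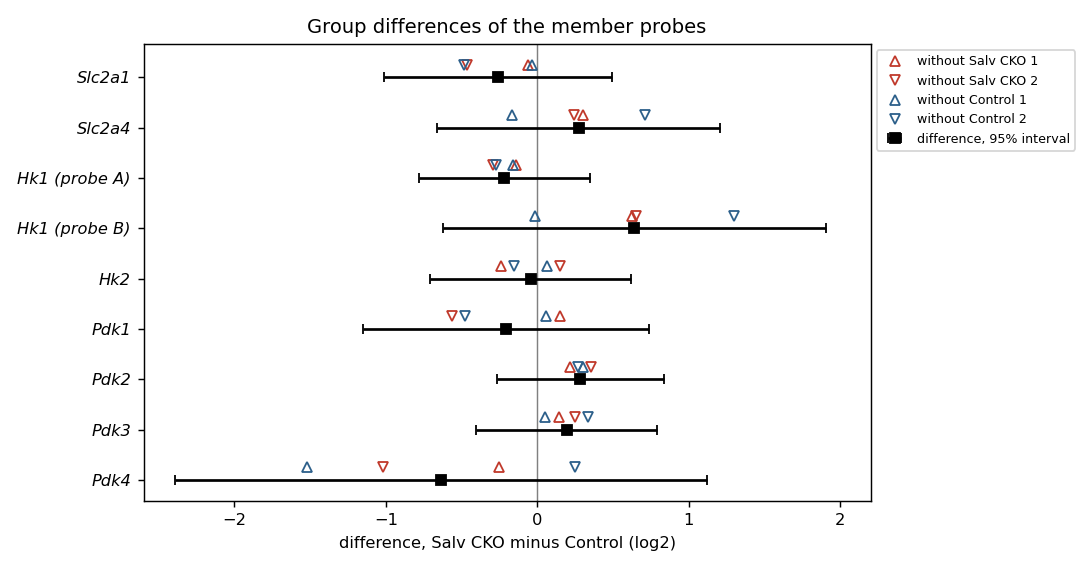
The plot gives for each member probe the difference in log2 level, Salv CKO minus Control (black squares), with its 95% interval from limma, and above it the difference with 1 sample left out (red triangles, a Salv CKO sample; blue, a control). Every interval crosses 0, and the points for Slc2a4, Hk1 probe B, Hk2, Pdk1 and Pdk4 change sign when a sample is left out.

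**Figure D3:**
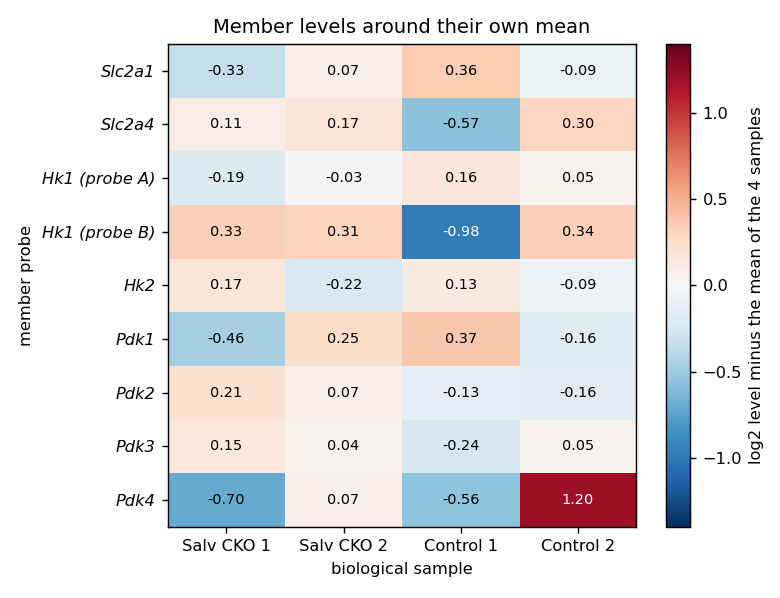
Rows are the 9 member probes, columns the 4 biological samples, and colour and number give the log2 level minus the mean of the 4 samples. The largest departures are in the controls, at 1.20 for Pdk4 in Control 2 and -0.98 for Hk1 probe B in Control 1.

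Seen by sample, Control 1 was the highest for 3 of the 9 probes (Slc2a1, Hk1 probe A and Pdk1) and the lowest for 3 (Slc2a4, Hk1 probe B and Pdk3). Salv CKO 1 was the lowest for 4 and the highest for 3, and Control 2 the highest for 3 and the lowest for 1. Salv CKO 2 was the lowest for 1 (Hk2) and the highest for 0. Over all named genes, Control 1 was the highest sample for 38.2%, Salv CKO 1 for 24.2%, Control 2 for 19.8% and Salv CKO 2 for 17.8%. The lowest sample was Control 1 for 27.4%, Salv CKO 1 for 29.3%, Control 2 for 24.8% and Salv CKO 2 for 18.4%. The departures of Control 1 thus went in both directions within the set.

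The genes nearest to Pdk2 in pattern were Gmip, Haus4 and Dap, at root mean square distances of 0.016, 0.018 and 0.018 between mean-centred levels over 4 samples, among 11884 probes with a mean level of at least 6. Dap, for example, stood at 12.15 and 12.01 in Salv CKO 1 and 2 and at 11.86 and 11.81 in Control 1 and 2. Nearest to Pdk4, a query chosen after its values were seen, were Nudt6, Rnf41 and Nap1l5, at distances of 0.12, 0.13 and 0.17. Nudt6 stood at 8.41 and 9.41 in Salv CKO 1 and 2 and at 8.52 and 10.25 in Control 1 and 2. Each likeness rests on 4 values.

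The other genes of the pathway were described from 5 lists, in which 72 of 84 listed genes had a named probe, each read by its brightest. None of the 72 passed the threshold, and 1 had an unadjusted p under 0.05 (3.32% of named genes). Of the 72, 24 had a positive difference (46.9% of named genes). The groups did not overlap for 27, of which 6 were higher (14.2% of named genes) and 21 lower (16.5%), or 30.7% of named genes in either direction. The median difference over named genes was -0.021.

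Other carriers, hexokinases and lactate dehydrogenases had 14 of 15 genes measured, 6 positive and 8 negative, with a median difference of -0.051, which was 0.12 without normalization between arrays and ran from -0.096 to 0.026 with 1 sample left out. None passed the threshold, and the groups did not overlap for 4. The lowest p values belonged to probes near background: Slc2a2, the liver carrier, at levels from 2.26 to 2.90, Hkdc1 from 1.39 to 2.46, Ldhc, the testis lactate dehydrogenase, from 0.37 to 3.27, and Slc2a9 from 1.38 to 2.30. Slc2a3, a high-affinity carrier, differed by -0.22, with 6.49 and 7.08 in Salv CKO 1 and 2 and 7.28 and 6.73 in Control 1 and 2.

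The enzymes of glycolysis below hexokinase had 14 of 20 genes measured, 6 positive and 8 negative, with a median of -0.080, which was -0.24 with arrays centred on their medians, 0.0057 without Control 1 and -0.17 without Control 2. None passed, and 6 did not overlap, 4 of them lower. Pfkfb3, which makes the activator of the phosphofructokinase step, had levels of 8.23 and 8.49 in Salv CKO 1 and 2. Control 1 and 2 stood at 9.31 and 8.77, and the difference was -0.68 ± 0.28 (limma adjusted p = 0.999). Pfkp, the platelet-type phosphofructokinase, stood at 6.30 and 6.59 against 7.58 and 6.79, a difference of -0.74 ± 0.34. Pfkfb2, the heart form of the activator enzyme, differed by -0.56 by its brightest probe, by -0.60 by the next and by 0.31 by a dim one. The groups overlapped for the other genes of the phosphofructokinase step, with differences of -0.39 for Pfkl, -0.38 for Pfkfb4, -0.14 for Pfkfb1 and -0.083 for Pfkm, the muscle form. Pgam2, the muscle phosphoglycerate mutase, and Gpi1, the isomerase after hexokinase, were the 2 genes without overlap that were higher, by 0.27 and 0.18. Aldoa differed by 0.021, Pkm by 0.064 and Tpi1 by -0.077. In this list Control 1 was the highest sample for 9 of 14 genes.

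For the entry of pyruvate into mitochondria, 10 of 11 genes were measured, 2 positive and 8 negative, with a median of -0.29, which was -0.42 under median centring. None passed the threshold, and 6 did not overlap, 5 of them lower. Pdp2, a phosphatase that reverses the action of the Pdk enzymes, stood at 6.89 and 6.91 in Salv CKO 1 and 2 and at 8.23 and 7.37 in Control 1 and 2, a difference of -0.90 ± 0.35 (limma, unadjusted p = 0.0547, adjusted p = 0.999). Pdp1, the other phosphatase, differed by -0.30, and Dlat, a core subunit of the pyruvate dehydrogenase complex, by -0.27. Pcx, pyruvate carboxylase, was dim, and its difference of -1.06 came with a technical SD of 1.56. Pdha1, the subunit that the Pdk enzymes phosphorylate, differed by 0.13. Control 1 was the highest sample for 7 of 10 genes, and the median was -0.18 without it and -0.13 without Salv CKO 1.

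The lactate carriers and their chaperones had 6 of 6 genes measured, 1 positive and 5 negative, with a median of -0.26. None passed, and 4 did not overlap, all lower. Slc16a3 (MCT4), which exports lactate, stood at 6.17 and 6.32 in Salv CKO 1 and 2 against 6.81 and 6.55 in Control 1 and 2, a difference of -0.43 ± 0.23 (limma adjusted p = 0.999). Slc16a7 (MCT2) differed by -0.32 and Bsg, the chaperone of these carriers, by 0.31. Slc16a1 (MCT1), 1 of the 4 without overlap, was at background, with levels from 0.88 to 1.51. The median of this list was -0.046 without normalization between arrays, -0.11 with a pseudocount of 16 and -0.17 without Control 1.

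Regulators of glucose uptake and use had 28 of 32 genes measured, 9 positive and 19 negative, with a median of -0.092, which was -0.27 under median centring. It was -0.016 without Salv CKO 1, -0.050 without Control 1, -0.22 without Salv CKO 2 and -0.16 without Control 2. None passed, and 7 did not overlap, 6 of them lower. Tbc1d4 (AS160), which holds back Slc2a4 vesicles until insulin acts, had levels of 7.34 and 7.94 in Salv CKO 1 and 2 against 8.43 and 8.22 in Control 1 and 2, a difference of -0.68 ± 0.29 (limma adjusted p = 0.999). Tigar differed by -0.41 and Ppargc1a, a coactivator of mitochondrial genes, by -0.55. Arrdc4, which limits glucose uptake, differed by 0.38 by 1 probe and by -0.26 by the other. Hif1a differed by 0.097 by its brightest probe, and by -0.34 and -0.63 by dimmer ones.

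**Figure D4:**
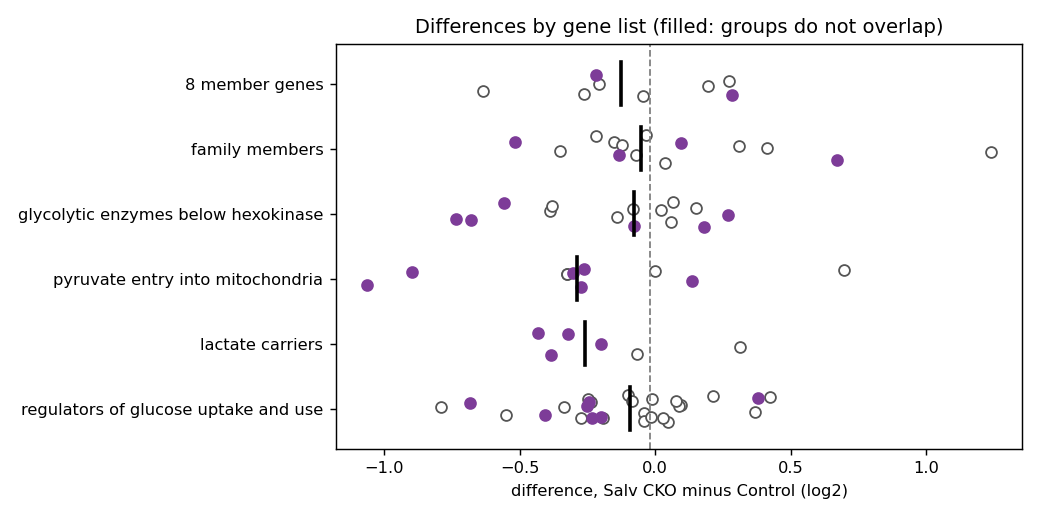
Each point is a gene, by its brightest probe, placed by its log2 difference (Salv CKO minus Control) on the horizontal axis and by list on the vertical axis; filled points are genes whose groups do not overlap, short bars are list medians and the dashed line is the median of all named genes (-0.021). The members lie around that line with a median of -0.13, and the pyruvate entry and lactate carrier lists have the lowest medians, -0.29 and -0.26.

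The tissue label was checked against markers, with a list's summed intensity given as log2. Heart muscle markers (6 of 10 measured) summed to 17.83 and 17.81 in Salv CKO 1 and 2 and to 17.80 and 17.87 in Control 1 and 2. All 6 lay at or above the 99.85th percentile of probes, where quantile normalization gives the arrays the same values. Their near-equal sums therefore cannot show equal muscle content. Fat markers (9 of 9), which matter for Slc2a4, summed to 14.38 and 14.00 against 14.75 and 14.49, with Lep near background at 2.80 to 3.64. Of the 9 fat genes, 8 had a negative difference and 1 a positive one, with a median of -0.96. The brightest, Fabp4, spanned a fold of 1.23 between its highest and lowest sample and weighs most in the sum. Ucp1 spanned a fold of 7.77, with 11.95 and 9.75 in Salv CKO 1 and 2 and 12.71 and 11.74 in Control 1 and 2. The fat sum does not show this spread. Slc2a4 stood at 10.70 and 10.76 in Salv CKO 1 and 2 and at 10.02 and 10.89 in Control 1 and 2. Its relation to the fat markers was not tested. Erythroid markers (4 of 8), which matter for Slc2a1 and Hk1, summed to 13.15 and 13.73 against 13.42 and 12.36. Skeletal muscle markers (4 of 10) summed to 8.37 and 8.57 against 8.24 and 8.41, with Actn3 and Pvalb between 2.29 and 4.15. Endothelial markers (7 of 7) summed to 14.83 and 14.91 against 14.98 and 14.83, fibroblast markers (7 of 7) to 16.26 and 16.32 against 16.28 and 16.32, and macrophage markers (6 of 7) to 12.35 and 12.18 against 12.41 and 12.44. Among the fibroblast genes, Col1a1 was near background in all samples (1.69 to 2.52), and Pdgfra stood at 1.01 and 10.72 in Salv CKO 1 and 2 and at 2.14 and 8.71 in Control 1 and 2, with a technical SD of 1.88. The sum does not show this split of Pdgfra by sample number. Among the macrophage genes, Mrc1 had a technical SD of 2.10. Its technical arrays of Salv CKO 2 ran from 3.25 to 10.62, and their mean of 8.09 enters the macrophage sum of 12.18. The part of these cell types in the member levels was not tested, and in whole hearts fewer cells of a type and less RNA per cell cannot be told apart.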

How the data were processed

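The deposited values were intensities, whole numbers from -10 to 65474 for 26423 probes on 12 arrays. Per the labels' protocols, the authors amplified total RNA with an amino-allyl nucleotide and coupled it to Cy5. The sources used here do not give the scanner, nor any background or normalization step. Array medians ran from 58 to 88, so arrays were quantile normalized with limma 3.58.1 (R 4.3.3). Values below the lowest positive one (0.0833) were set to it, and log2(value + 1) was taken, which understates changes of dim probes. Arrays limit the precision through their number, 2 samples a group.

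Log2 values were averaged over technical arrays. The group comparison was a two-sided limma fit (lmFit, eBayes) with 2 residual degrees of freedom and 2.60 from the prior, with Benjamini-Hochberg adjustment over all probes and a threshold of 0.05. Intervals at 95% used the moderated standard error. Tested on simulated data of this size, the procedure made no false calls but called only some of the largest changes and none of the smaller ones. The main fit did not pair samples by the numbers in their labels. Lists were given without a test. The differences between the members of a pair were tested by exact permutation; the planned pair of Ldhb and Ldha could not be formed.

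Of the probes, 20377 had 1 gene symbol, 0 several and 6046 none; RefSeq (GRCm38.p6) held 18213 of these under the symbol and 2126 as a synonym, and lacked 38. Named were Sav1, all member probes, in each list up to 4 genes with the smallest p, and the 3 probes nearest in pattern to the member with the smallest p. Those outside this rule were chosen after their values were seen. Among pathway genes they were Slc2a3, Aldoa, Pkm, Tpi1, Pdha1, Pgam2, Gpi1, Pfkfb4, Pfkfb1, Pfkm, Egln1, Pdpr and Hif1a. Among markers they were Lep, Fabp4, Ucp1, Actn3, Pvalb, Col1a1, Pdgfra and Mrc1. The query Pdk4 was chosen in the same way. The members, lists, tests and alternatives were chosen with earlier results of these data known. Alternatives covered normalization, technical arrays, pseudocount, dim probes, variance model, replicate block and left-out samples. Figures were drawn with matplotlib 3.10.9. One other search of the start regions is not reported here.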

Additional observations from a re-analysis of the deposited data

How the results depend on the processing

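With all 4 samples, each member probe kept the sign of its difference under the 4 other level settings. The random effect, the replicate block, the removal of dim probes and the variance model could not change a sign, since they leave the differences of the members as they were. In limma, 0 of 9 passed the adjusted threshold under any of these settings (0 of 9 had an unadjusted p under 0.05 with the main setting). With sample as a random effect over all 12 arrays, 2 member probes (Pdk2 and Hk1 probe B) had an unadjusted limma p under 0.05. In that setting 2202 of all 26423 probes did as well. The limma count of 0 of 26423 probes (1047 at an unadjusted p under 0.05) became 2 with median centring, 11 without normalization between arrays, which shifted the median of all probes to 0.11, and 61 with the random effect; it stayed at 0 with each sample left out.

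With 1 sample left out, where the lone sample of a group is assumed to vary like the other group, differences ran from -0.16 to 0.71 for Slc2a4, -0.016 to 1.30 for Hk1 probe B, -0.24 to 0.15 for Hk2, -0.57 to 0.15 for Pdk1 and -1.52 to 0.25 for Pdk4. The pair difference of Slc2a4 minus Slc2a1 ran from -0.13 to 1.20 and that of Hk2 minus Hk1 from -0.10 to 0.45, and that of Pdk4 minus Pdk2 from -1.82 to -0.021; Hk2 minus Hk1 was -0.26 with the mean over all probes, in which Hk1 probe B enters.

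The replicate block gave 0 probes past the threshold (743 at an unadjusted p under 0.05) and 0 member probes, and changed no call. Deviations of same-numbered samples correlated at -0.25 over all probes and at -0.48 over the brighter 50%. The crossed pairing, chosen after seeing the data, also gave 0 probes (1549 at an unadjusted p under 0.05).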

Other observations

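Some other genes of glucose metabolism also stood apart in Control 1. Over all named genes, Control 1 was the highest sample for 38.2% and the lowest for 27.4%. Both probes of Egln1, the oxygen-sensing prolyl hydroxylase that marks hypoxia-inducible factors for degradation, were lowest there. The brighter had a level of 9.13 in Control 1 against 10.14 to 10.39 in the other 3 samples, and the dimmer 8.79 against 9.78 to 9.85. Pdpr, the regulatory subunit of the pyruvate dehydrogenase phosphatase, stood at 6.48 in Control 1, with 8.35 and 7.80 in Salv CKO 1 and 2 and 8.28 in Control 2. Ppargc1a was instead highest in Control 1, at 9.62 against 8.32 to 8.96 in the others. These genes were singled out after their values were seen, and no test was made.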
